A study of Mus musculus with 14 samples.

Results

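The CREB family and its coactivators were followed as transcripts through mRNA sequencing of 4T1 tumor spheroids. The 8 genes were chosen by name as the members of this family, with earlier results of these data known, and all 8 were among the 19525 genes of the count table. *Creb1*, *Atf1* and *Crem* encode the 3 transcription factors of the family. *Crtc1*, *Crtc2* and *Crtc3* encode the CREB-regulated transcription coactivators. *Crebbp* and *Ep300* encode the acetyltransferases CBP and p300.

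4T1 cells come from a mouse mammary carcinoma of the triple-negative type. Their spheroids were grown for 5 days in lung-like medium, made to resemble the nutrients of lung interstitial fluid. The control cells expressed a scrambled hairpin and received 700 µM aspartate (ASP shSCR, 4 libraries, replicates 1 to 4) or no added aspartate (NoASP shSCR, 3 libraries, replicates 2 to 4). Spheroids with a hairpin against *Grin2d* (ASP shGRIN2D, 3 libraries) or *Dhps* (ASP shDHPS, 4 libraries) all received 700 µM aspartate. *Grin2d* encodes a subunit of the NMDA receptor, a glutamate-gated calcium channel. *Dhps* encodes deoxyhypusine synthase, the first enzyme in the hypusination of the translation factor eIF5A. All groups thus carried a lentiviral hairpin and were polyclonal cells selected with puromycin. The RNA came from the cytosolic lysate that served as the input of a polysome gradient, and each value is an average over all cells of a spheroid culture.

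CREB family factors bind the cAMP response element as dimers through a basic leucine zipper. Calcium and cAMP act on them mainly through phosphorylation, which lets CREB1 bind CBP or p300, and through dephosphorylation of the CRTC proteins, which then enter the nucleus and bind the leucine zipper of CREB. In neurons, calcium entry through NMDA receptors is a classical stimulus for this route. Phosphorylation, protein level and protein location cannot be read from these libraries, which measured the amount of each transcript only. *Dohh*, the gene of the second hypusination enzyme, is included among the CREB target genes because the study linked it to CREB.

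Library sizes were between 12731123 and 23231378 counts. *Dhps* fell in ASP shDHPS, with 5.6, 5.5, 7.6 and 9.1 CPM (reads of a gene relative to the size of its library) in replicates 1 to 4 against 18.7, 22.1, 20.2 and 16.7 in ASP shSCR (log2 fold change −1.48, SE 0.15, adjusted p = 8.31e-06, edgeR quasi-likelihood test). *Grin2d* was at 2.1, 2.2 and 3.1 CPM in ASP shGRIN2D replicates 1 to 3 (37 to 47 counts) and at 3.3, 3.2, 3.7 and 4.2 CPM in ASP shSCR (53 to 76 counts). The groups did not overlap, as for 6.4% of all genes in this direction. The difference missed the threshold (log2 fold change −0.55, SE 0.28, adjusted p = 0.516, edgeR). On the first principal component of all libraries (32.3% of the variance), the 2 shSCR replicate 2 libraries, with and without aspartate, lay at −25.8 and −19.7 and ASP shDHPS replicate 1 at 27.6, farther out than the rest. ASP shDHPS replicate 3 came close behind, at 19.1. The 6 epithelial markers summed to 4839 to 5075 CPM in the shSCR libraries, 3642 to 3939 in ASP shGRIN2D and 3744 to 4391 in ASP shDHPS, with no overlap between shSCR and either knockdown. Against ASP shSCR, *Krt7* and *Krt18* were called lower in ASP shGRIN2D (*Krt18* in 13 of 16 alternatives) and *Epcam*, *Krt7* and *Krt19* in ASP shDHPS. *Cdh1* was called in neither, with means of 442 CPM in ASP shSCR, 422 in ASP shGRIN2D and 453 in ASP shDHPS. The part of these marker changes in the results for the knockdowns was not tested. The 3 leukocyte markers measured summed to 12.6 to 16.9 CPM in ASP shDHPS and 5.82 to 13.1 in ASP shSCR, mostly from *Cd68*, also known from macrophages (12.1 to 16.0 against 5.51 to 12.9 CPM, adjusted p = 0.0884, edgeR). *Ptprc*, which defines leukocytes, had at most 12 counts and *Pecam1* of endothelium at most 10 in any library. Of the 6 fibroblast markers, 3 were in the count table. *Dcn* had at most 1 count, whereas in ASP shSCR *Thy1* was at 145 to 253 CPM (median 156) and *Pdgfra* at 27.5 to 40.7 CPM. Per the methods, 4T1 cells used for flow cytometry carried a Thy1.1 reporter, and whether it adds to the *Thy1* counts here was not tested.

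All 8 transcripts were present in every library. *Crem* was the scarcest, with 53 to 167 counts per library, and each of the others had at least 368 counts. Levels of different genes were compared per kilobase of 1 transcript model per gene, the one with the longest coding part, averaged over the 14 libraries. *Crtc2* (28.2 CPM per kb) and *Atf1* (26.2) were highest, followed by *Creb1* (16.4), *Ep300* (10.7), *Crtc1* (7.02), *Crtc3* (6.87), *Crebbp* (4.29) and *Crem* (2.12). *Crtc2* was above *Atf1* in 12 of 14 libraries and *Crtc1* above *Crtc3* in 11 of 14, so that these neighbours were not separated by their spread. *Crebbp* was above *Crem* in 13 of 14 libraries, and the other neighbours kept their order in 14 of 14. Per kilobase of coding sequence the order was another, with *Creb1* (80.5 CPM per kb) and *Atf1* (76.8) ahead of *Crtc2* (37.3), since the transcript model of *Creb1* is 5009 bases long and its coding part 1023 bases.

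Within the family, *Crtc2* supplied most of the CRTC transcript, between 61.8% and 73.2% per kilobase in single libraries. *Crem* supplied 3.45% to 8.93% of the summed factor transcripts per kilobase. *Crem* encodes both activators and, from an internal promoter, the short repressor ICER, and a count per gene does not tell them apart.

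**Figure D1:**
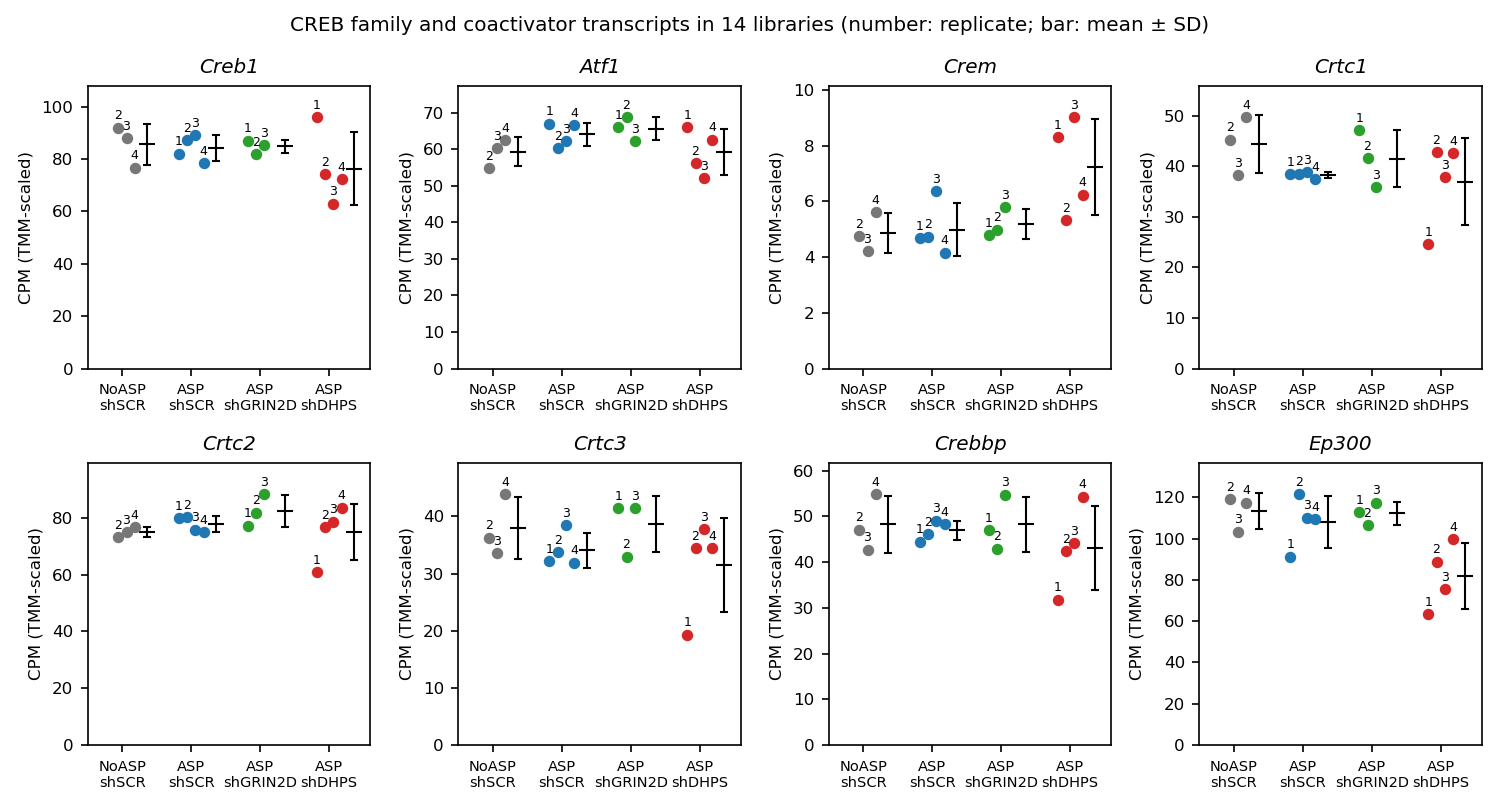
CPM of the 8 genes (vertical axes, starting at 0) in each of the 14 libraries, by group. Points carry the replicate number and bars give the mean ± SD. *Ep300* in ASP shDHPS (63.5 to 99.8 CPM) lies below ASP shGRIN2D (106 to 117 CPM), and in the 4 comparisons made here no other pair of groups is separated.

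To test whether aspartate changed the level of the CREB family, ASP shSCR was compared with NoASP shSCR. No CREB family or coactivator transcript passed the threshold, an adjusted p under 0.05 over 19525 genes. This count of 0 of 8 stands beside 0% of all genes by edgeR and 0 genes by DESeq2, with 424 genes (2.17%) and 0 of the 8 at an unadjusted p under 0.05. The replicate numbers pair these libraries, and a fit of all libraries blocked on them called 2 genes of the table, and one of the 7 shSCR libraries alone 64, with none of the 8 in either. The folds and intervals for aspartate given below come from the fit without this block and so leave the pairing out. Over 17 alternatives, the blocked fits among them, log2 fold changes ran from −0.096 to 0.032 (*Creb1*), 0.059 to 0.15 (*Atf1*) and −0.31 to −0.12 (*Crtc1*). In no member did the ranges of ASP shSCR and NoASP shSCR separate (0 of 8, beside 2.71% of all genes).

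*Creb1*, the factor best known for its activation by phosphorylation, was at 92.0, 88.1 and 76.7 CPM without aspartate (replicates 2 to 4) and at 82.1, 87.1, 89.1 and 78.3 CPM with it (replicates 1 to 4). The range with aspartate lay within the range without it. The fold of *Creb1* was 0.984, with a 95% interval from 0.836 to 1.16. *Atf1*, the closest relative of *Creb1*, was at 54.9, 60.4 and 62.6 CPM without aspartate and at 66.9, 60.4, 62.2 and 66.6 CPM with it, a fold of 1.08 (0.940 to 1.24). *Atf1* was higher with aspartate in 3 of 3 same-numbered pairs, although the ranges of the groups overlapped. *Crem* had a fold of 1.03 with a wider interval, from 0.768 to 1.38.

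Of the CRTC coactivators, *Crtc1* was the one with the largest distance between the means. It was at 45.2, 38.3 and 49.7 CPM without aspartate and at 38.4, 38.5, 38.9 and 37.4 CPM with it. The ASP shSCR values were tightly grouped, and NoASP shSCR replicate 3 fell among them. The fold of *Crtc1* was 0.863 (0.700 to 1.06, adjusted p = 1, edgeR). *Crtc2* had a fold of 1.04 (0.899 to 1.20) and *Crtc3* of 0.899 (0.712 to 1.14). The acetyltransferase genes had folds of 0.974 (*Crebbp*, 0.801 to 1.18) and 0.954 (*Ep300*, 0.799 to 1.14). Across the 8 genes, the intervals ran from 0.700 to 1.38.

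**Figure D2:**
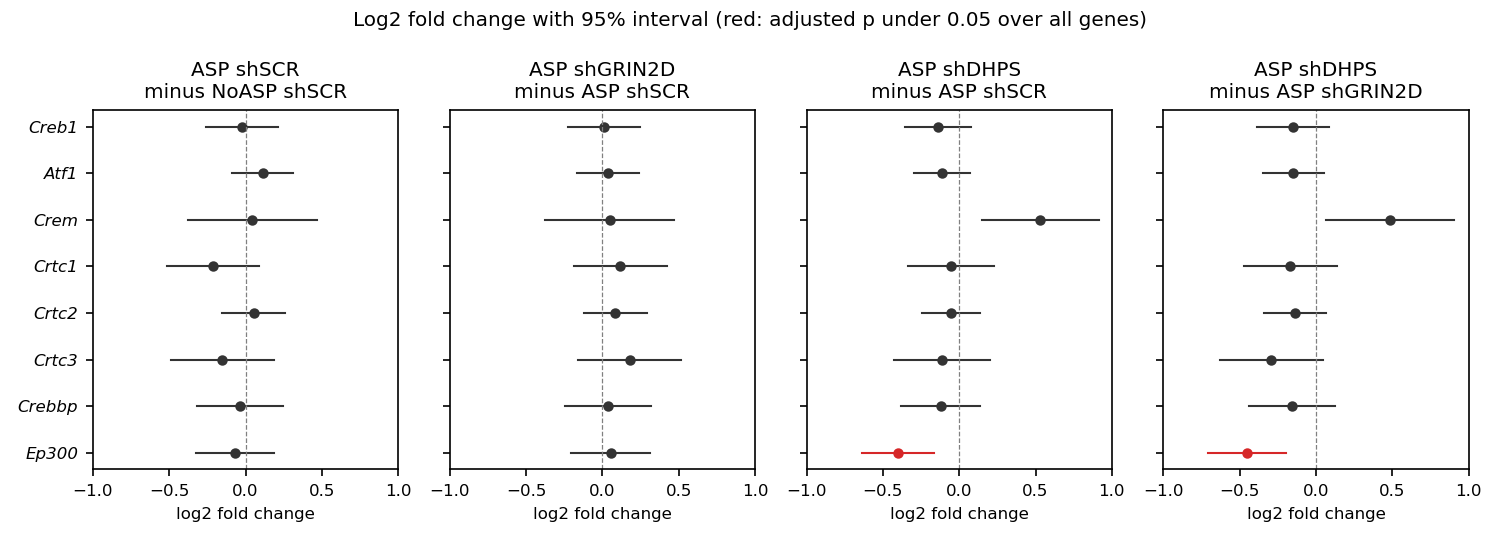
Log2 fold change of the 8 genes in the 4 comparisons (horizontal axes), with 95% intervals as lines. Red marks an adjusted p under 0.05, which *Ep300* reached in both comparisons with ASP shDHPS (log2 fold changes −0.40 and −0.45), and the interval of *Crem* lies above 0 in the same comparisons.

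To ask whether the NMDA receptor subunit set these levels, ASP shGRIN2D was compared with ASP shSCR. Again none of the 8 transcripts passed, beside 1.16% of all genes (226 of 19525). DESeq2 called none of the 8 either, and none had an unadjusted p under 0.05. The ranges of the groups separated for 0 of 8, beside 12% of all genes and 17.1% of those with a mean of at least 5 CPM. *Creb1* was at 87.1, 82.0 and 85.4 CPM in replicates 1 to 3, inside the ASP shSCR range, with a fold of 1.01 (0.856 to 1.19). *Atf1* had a fold of 1.03 (0.893 to 1.18) and *Crem* of 1.03 (0.770 to 1.39). The largest fold was that of *Crtc3*, 1.13 (0.896 to 1.43), whose libraries at 41.5, 32.9 and 41.4 CPM lay on both sides of the highest ASP shSCR value of 38.5 CPM. *Ep300* was at 113, 106 and 117 CPM, a fold of 1.04 (0.869 to 1.24).

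To see whether silencing of *Dhps* touched the family, ASP shDHPS was compared with ASP shSCR. *Ep300* was the only one of the 8 past the threshold, and it fell, beside 2.57% of all genes called lower (4.22% in either direction). It was at 63.5, 88.8, 75.4 and 99.8 CPM in ASP shDHPS replicates 1 to 4, against 91.2, 122, 110 and 110 CPM in ASP shSCR. ASP shDHPS replicate 4 was above ASP shSCR replicate 1, and the other ASP shDHPS libraries were below all of ASP shSCR. The log2 fold change of *Ep300* was −0.40 (SE 0.12), a fold of 0.757 (0.642 to 0.894), with an adjusted p of 0.04995, just under the threshold. The ranges of the groups separated for 0 of 8, beside 11.1% of all genes and 16.7% of those with a mean of at least 5 CPM.

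Against ASP shGRIN2D (113, 106 and 117 CPM), the 4 ASP shDHPS values of *Ep300* were all lower and the groups did not overlap, as for 7.47% of all genes. In either direction, 15.1% of all genes and 21.5% of those with a mean of at least 5 CPM did not overlap. The log2 fold change of *Ep300* was −0.45 (SE 0.12, adjusted p = 0.0474, edgeR), and it was again the only one of the 8 to pass. Of all genes, 2.82% passed and 1.62% were called lower, and of those with a mean of at least 5 CPM, 4.66% passed. Both comparisons use the same ASP shDHPS libraries. In NoASP shSCR, *Ep300* was at 119, 103 and 117 CPM. That group differs from ASP shDHPS in both hairpin and aspartate, and the pair was not tested.

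The call for *Ep300* rested on single libraries and on the scaling. Against ASP shSCR it held in 5 of 18 alternative settings, with log2 fold changes from −0.51 to −0.19 and adjusted p from 0.00144 to 0.224 (edgeR, or DESeq2 in 1 setting). Without ASP shDHPS replicate 1 the log2 fold change was −0.30 (adjusted p = 0.129, edgeR), without ASP shSCR replicate 2 it was −0.34 (adjusted p = 0.158, edgeR), and without both shSCR replicate 2 libraries and ASP shDHPS replicate 1 it was −0.23 (adjusted p = 0.224, edgeR). It also missed the threshold without ASP shDHPS replicate 2 or 3 and without ASP shSCR replicate 3 or 4. With offsets for GC content and transcript length it was −0.19 (SE 0.07, adjusted p = 0.0944, edgeR). Against ASP shGRIN2D the call held in 9 of 17 settings, among them the GC and length offsets (log2 fold change −0.27, adjusted p = 0.0340, edgeR), and it was lost without ASP shDHPS replicate 1, 2 or 3 and without any of the ASP shGRIN2D libraries.

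Transcript length moved with this result. The *Ep300* model is 9566 bases long. Of the 10176 genes that reached 5 CPM on average and had a known length, 4.15% fell in ASP shDHPS against ASP shSCR, and among the 1267 with at least 6 kb (members left out) 10.3% fell. Relative to the mean of the 14 libraries, the long transcripts had a median log2 deviation of −0.26, −0.051, −0.22 and 0.040 in ASP shDHPS replicates 1 to 4, the order in which these libraries rank for *Ep300*. In ASP shSCR the same median was −0.027, 0.17, 0.052 and 0.037, lowest and highest in replicates 1 and 2, as for *Ep300*. The part of transcript length in the *Ep300* result was not tested beyond the offsets above.

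**Figure D3:**
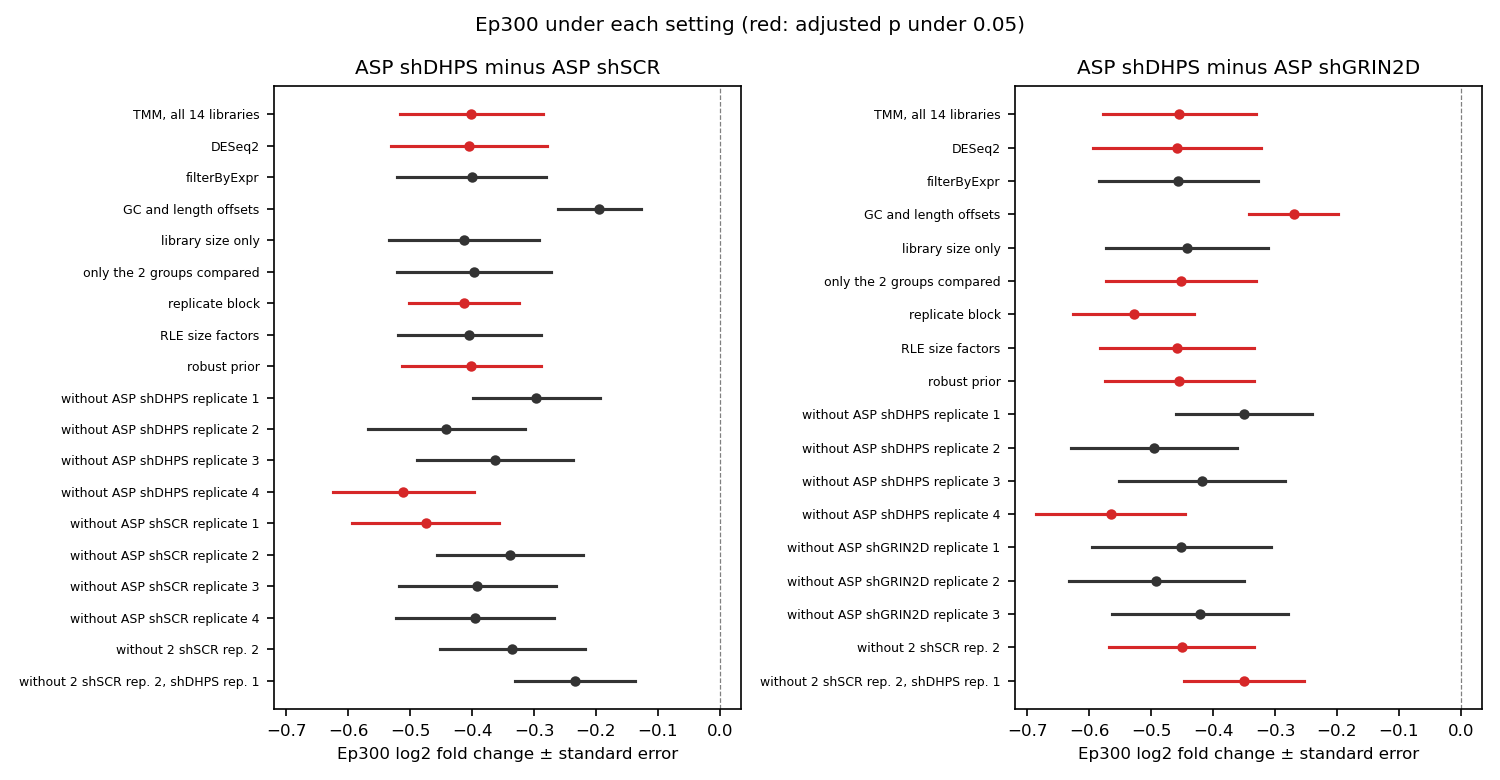
Log2 fold change of *Ep300* ± SE (horizontal axes) under each setting, for ASP shDHPS against ASP shSCR and against ASP shGRIN2D. All values are below 0, between −0.51 and −0.19 and between −0.56 and −0.27, and red settings have an adjusted p under 0.05.

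*Crebbp*, the paralog of *Ep300*, has a model of 10820 bases. It was at 31.8, 42.4, 44.2 and 54.3 CPM in ASP shDHPS and at 44.5, 46.2, 49.1 and 48.3 CPM in ASP shSCR. Replicate 1 was the lowest and replicate 4 the highest of these 8 libraries. The fold of *Crebbp* was 0.919 (0.766 to 1.10, adjusted p = 0.634, edgeR). Within a library, *Ep300* per kilobase was 2.601 ± 0.28 times *Crebbp* in ASP shSCR (SD, n = 4), 2.67 ± 0.23 in NoASP shSCR (n = 3), 2.65 ± 0.20 in ASP shGRIN2D (n = 3) and 2.16 ± 0.19 in ASP shDHPS (n = 4). The ratio ranged from 1.93 to 2.37 in ASP shDHPS and from 2.32 to 2.98 in ASP shSCR, which overlapped.

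*Crem* was the one family member with a higher mean in ASP shDHPS, although it did not pass. It was at 8.3, 5.3, 9.0 and 6.2 CPM in ASP shDHPS replicates 1 to 4 and at 4.7, 4.7, 6.4 and 4.2 CPM in ASP shSCR. Replicates 1 and 3 were above every ASP shSCR library, and replicates 2 and 4 were below ASP shSCR replicate 3. The fold was 1.44 (1.11 to 1.89, adjusted p = 0.111, edgeR), and the unadjusted p was under 0.05.

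The other 5 transcripts did not pass in ASP shDHPS. *Creb1* was at 95.9, 74.1, 62.9 and 72.4 CPM, the widest range of *Creb1* in any group, with a fold of 0.907 (0.780 to 1.05). *Atf1* was at 66.0, 56.1, 52.0 and 62.6 CPM, a fold of 0.925 (0.813 to 1.05). The CRTC genes had folds of 0.964 (*Crtc1*, 0.792 to 1.17), 0.963 (*Crtc2*, 0.844 to 1.10) and 0.924 (*Crtc3*, 0.743 to 1.15).

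A single library stood apart for the CRTC genes. In ASP shDHPS replicate 1, *Crtc1* was at 24.6 CPM, *Crtc2* at 60.8 and *Crtc3* at 19.3, each the lowest of its 14 libraries, while *Creb1* was at its highest. In replicates 2 to 4, *Crtc1* was at 42.8, 37.8 and 42.6 CPM, *Crtc2* at 76.7, 78.7 and 83.6 CPM and *Crtc3* at 34.4, 37.8 and 34.5 CPM, much as in ASP shSCR. Without replicate 1 the log2 fold changes were 0.10, 0.034 and 0.062, on the other side of 0 and not past the threshold.

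GC content moved with this library as well. The transcripts of the CRTC genes have 57.0% to 59.2% GC and that of *Creb1* has 39.9%. In ASP shDHPS replicate 1, the 25% of genes richest in GC (2544 genes) had a median log2 deviation of −0.16 and the poorest 25% one of 0.12. In the other 13 libraries both medians stayed between −0.052 and 0.063. The part of GC content in the CRTC values was not tested beyond the offsets. Over the 14 libraries within groups, *Crebbp* and *Crtc3* varied together (Pearson r = 0.83 of the deviations from group means), and *Creb1* and *Crtc3* in opposite directions (r = −0.73). Such values share library, depth and GC content and are given as a description.

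**Figure D4:**
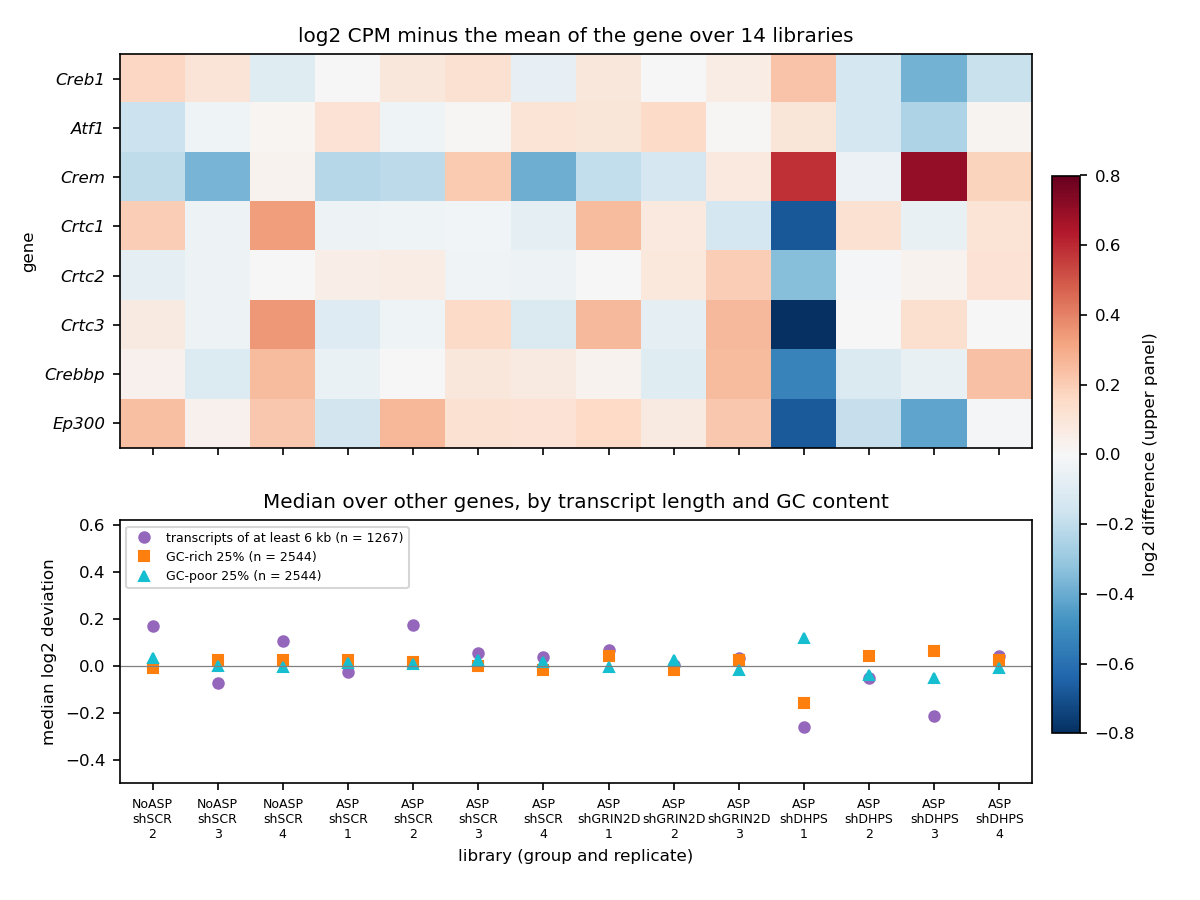
Upper panel, log2 CPM of each gene minus its mean over the 14 libraries (columns), with red for higher and blue for lower. Lower panel, the median log2 deviation of long (at least 6 kb), GC-rich and GC-poor transcripts (the richest and the poorest 25% of genes) in the same libraries. ASP shDHPS replicate 1 is low for the CRTC genes, *Crebbp* and *Ep300* and has the lowest medians of long (−0.26) and GC-rich (−0.16) transcripts.

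The genes whose log2 CPM followed that of *Ep300* most closely over the 14 libraries, among 9779 genes compared, were *Phf3* (r = 0.976), which encodes a regulator of RNA polymerase II, *Huwe1* (r = 0.974), a ubiquitin ligase, and *Nav1* (r = 0.964), a microtubule-binding protein. Their transcript models have 7567, 14579 and 13117 bases and are thus also long. For *Creb1* they were *Rdx* (r = 0.895), which links actin to the membrane, *Ipo7* (r = 0.885), a nuclear import receptor, and *Ash2l* (r = 0.874), a subunit of histone methyltransferase complexes.

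Next, the genes around the family were counted, from lists assembled by function. Of 17 CREB kinases and their regulatory subunits, none passed with aspartate or in ASP shGRIN2D, and 2 fell in ASP shDHPS against ASP shSCR, where 2.57% of all genes did. *Rps6ka2*, which encodes the ribosomal S6 kinase RSK3, was at 42.0, 55.9, 47.7 and 49.8 CPM in ASP shDHPS and at 90.2, 77.1, 84.8 and 84.5 CPM in ASP shSCR, with no overlap. Its log2 fold change was −0.79 (SE 0.11, adjusted p = 0.000199, edgeR), and it passed in 18 of 18 alternatives. *Camk2g*, a calcium/calmodulin-dependent kinase, was at 45.1 to 53.0 CPM against 58.1 to 67.9 CPM (log2 fold change −0.37, SE 0.09, adjusted p = 0.0154, edgeR). Without ASP shDHPS replicate 3 or without ASP shSCR replicate 4 it missed the threshold (adjusted p = 0.0611 and 0.0573). Against ASP shGRIN2D, *Rps6ka2* was the only kinase gene past the threshold (log2 fold change −0.73, SE 0.11, adjusted p = 0.000637, edgeR). The median log2 fold change of the 17 kinases was −0.032, and that of all genes 0.0032.

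None of the 9 regulators of the CRTC proteins, the salt-inducible kinases, their relatives and calcineurin, passed in any comparison, with 0, 2, 4 and 2 at an unadjusted p under 0.05 in the order of the comparisons above (aspartate, ASP shGRIN2D, ASP shDHPS, and ASP shDHPS against ASP shGRIN2D), beside 2.17%, 10.4%, 19.3% and 14.8% of all genes. Of the 14 measured genes of cAMP synthesis and breakdown, *Adcy9*, an adenylyl cyclase, passed, and only between ASP shDHPS (1.19 to 1.67 CPM) and ASP shGRIN2D (2.88 to 3.82 CPM), with a log2 fold change of −1.13 (SE 0.26, adjusted p = 0.0166, edgeR), beside 1.62% of all genes called lower. The *Adcy9* call was lost in 3 of 17 alternatives, without ASP shDHPS replicate 3 and without ASP shGRIN2D replicate 2 or 3 (adjusted p up to 0.101, edgeR). None of the 13 partners of CBP and p300 and other acetyltransferases passed. *Ep300* was the only acetyltransferase gene of these lists that did, by calls that held in 5 of 18 alternatives (against ASP shSCR) and 9 of 17 (against ASP shGRIN2D). Means of *Kat6a* (114 CPM in ASP shDHPS, 146 in ASP shSCR) and *Kat6b* (19.9 and 26.8 CPM) were also lower, with overlapping ranges. *Kat2a* was level (115 and 114 CPM). Of these 13 genes, 4 had an unadjusted p under 0.05 in ASP shDHPS against ASP shSCR, as had 19.3% of all genes, and their median log2 fold change was −0.085.

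Of the 15 other CREB/ATF bZIP factors measured, 2 rose and 1 fell in ASP shDHPS, beside 1.65% and 2.57% of all genes. *Atf3*, an immediate early and stress-response factor, was at 18.7, 14.9, 22.4 and 18.3 CPM in ASP shDHPS and at 6.7, 6.0, 9.5 and 7.8 CPM in ASP shSCR, with no overlap. The log2 fold change was 1.31 (SE 0.17, adjusted p = 0.000103, edgeR). It was also higher than in ASP shGRIN2D, by 0.74 on the log2 scale (SE 0.18, adjusted p = 0.0240, edgeR), where 1.2% of all genes were called higher. This call was lost in 4 of 17 alternatives, without ASP shDHPS replicate 3 and without any single ASP shGRIN2D library (adjusted p up to 0.123, edgeR). *Creb3*, a membrane-bound factor of the endoplasmic reticulum, was at 27.6 to 33.0 CPM against 21.7 to 25.1 CPM (log2 fold change 0.34, SE 0.10, adjusted p = 0.0459, edgeR). *Creb3l2*, a relative of *Creb3*, was at 23.3 to 25.7 CPM against 30.7 to 44.7 CPM (log2 fold change −0.50, SE 0.13, adjusted p = 0.0366, edgeR). *Creb3* passed in 6 of 18 alternatives and was lost without any single ASP shSCR library and without ASP shDHPS replicate 1, 3 or 4. In the settings other than the removal of a single library, *Creb3* passed in 5 of 10 and *Creb3l2* in 7 of 10. *Creb3l2* passed in 11 of 18 alternatives, and among single libraries it was lost without ASP shDHPS replicate 1, 2 or 3 and without ASP shSCR replicate 2 (log2 fold change −0.35, adjusted p = 0.167, edgeR).

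The CREB target list held 31 genes, of which 26 were measured. None passed with aspartate, and none had an unadjusted p under 0.05 in edgeR. The immediate early genes were among them, with *Fos* at 5.34 to 9.41 CPM in ASP shSCR and 6.06 to 6.54 CPM in NoASP shSCR, and *Nr4a1* at 24.6 to 27.4 and 24.5 to 28.1 CPM. The median log2 fold change of the list was −0.018. The spheroids were collected after 5 days, and earlier times were not measured.

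In ASP shGRIN2D, 2 of the 26 target genes were called higher, beside 0.425% of all genes, and none was called lower. At an unadjusted p under 0.05 there were 10 of the 26, beside 10.4% of all genes (edgeR). *Rgs2*, a brake on G protein signaling, was at 17.05, 17.3 and 15.0 CPM in replicates 1 to 3, above 8.4, 7.1, 9.7 and 7.7 CPM in ASP shSCR. Its log2 fold change was 1.00 (SE 0.14, adjusted p = 0.000370, edgeR), and it passed in 16 of 16 alternatives. *Btg2*, an antiproliferative immediate early gene, was at 12.5, 9.7 and 9.9 CPM, above 6.7, 7.5, 6.2 and 5.2 CPM in ASP shSCR. Its log2 fold change was 0.74 (SE 0.18, adjusted p = 0.0473, edgeR), and without ASP shGRIN2D replicate 1 it was 0.61 (adjusted p = 0.319, edgeR). It passed in 9 of 16 alternatives and was also lost without ASP shGRIN2D replicate 2 or 3 and without ASP shSCR replicate 1, 3 or 4. In the settings other than the removal of a single library it passed in 8 of 9. Both were lower in ASP shDHPS than in ASP shGRIN2D, *Rgs2* by −0.71 and *Btg2* by −0.74 on the log2 scale (adjusted p = 0.00469 and 0.0281, edgeR), in a comparison that shares the ASP shGRIN2D libraries. There *Rgs2* passed in 17 of 17 alternatives and *Btg2* in 12 of 17, lost without ASP shDHPS replicate 1 or 2 and without any single ASP shGRIN2D library (adjusted p up to 0.218, edgeR). *Bdnf*, a neurotrophin gene, was the other target that fell in the same comparison (log2 fold change −0.58, SE 0.13, adjusted p = 0.0162, edgeR), and it was lost without ASP shGRIN2D replicate 1 or 3 (adjusted p up to 0.136, edgeR).

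In ASP shDHPS against ASP shSCR, 1 target gene was called higher and 1 lower, 2 of 26 beside 4.22% of all genes. At an unadjusted p under 0.05 there were 11 of 26, beside 19.3% of all genes (edgeR). Against ASP shGRIN2D there were 9 of 26, beside 14.8%. *Dohh* was at 65.5, 59.9, 59.0 and 55.0 CPM in ASP shDHPS and at 49.1, 36.8, 47.6 and 40.8 CPM in ASP shSCR. The lowest ASP shDHPS library was above the highest ASP shSCR library. The log2 fold change of *Dohh* was 0.46 (SE 0.10, adjusted p = 0.0108, edgeR), it passed in 18 of 18 alternatives, and against ASP shGRIN2D it was 0.42 (adjusted p = 0.0359, edgeR; 11 of 17 alternatives, lost without ASP shDHPS replicate 1, 2 or 3 and without any ASP shGRIN2D library). *Bcl2*, which encodes an inhibitor of apoptosis, was at 25.4 to 29.8 CPM in ASP shDHPS against 35.4 to 46.8 CPM in ASP shSCR (log2 fold change −0.53, SE 0.12, adjusted p = 0.0151, edgeR), and without ASP shSCR replicate 2 it was at −0.44 (adjusted p = 0.0625, edgeR), as it missed the threshold without ASP shDHPS replicate 3 (adjusted p = 0.0579). *Dohh* was at 40.4, 47.2 and 47.0 CPM in NoASP shSCR and at 47.6, 42.9 and 43.4 CPM in ASP shGRIN2D, both within the ASP shSCR range. Its log2 fold change was −0.039 with aspartate (SE 0.11, adjusted p = 1, edgeR) and 0.032 in ASP shGRIN2D (SE 0.11, adjusted p = 0.971, edgeR).

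**Figure D5:**
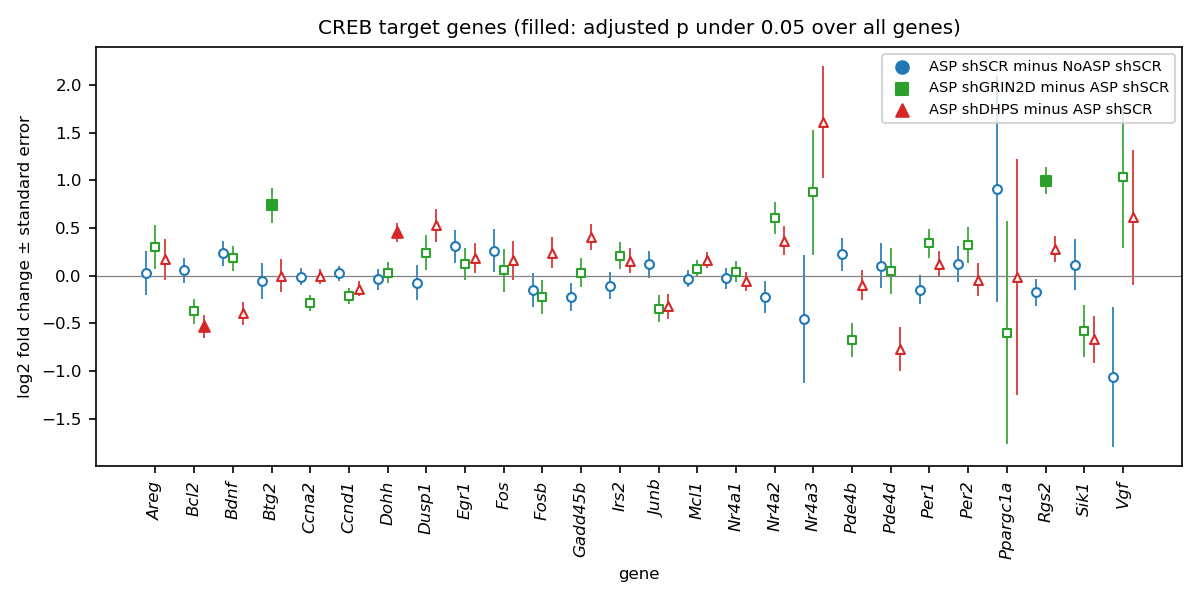
Log2 fold change ± SE (vertical axis) of the 26 measured CREB target genes (horizontal axis) in 3 comparisons. Filled symbols passed at an adjusted p under 0.05: *Rgs2* and *Btg2* in ASP shGRIN2D and *Dohh* and *Bcl2* in ASP shDHPS.

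The promoters of these genes were searched for the letters of the cAMP response element, since the factors bind them. Windows from 250 bases before to 50 bases after each transcription start were taken from RefSeq (mouse GRCm38.p6, another build than the GRCm39 of the counts). The full element TGACGTCA, which reads the same on both strands, was in 588 of 32851 windows (1.79%), and its core TGACG, on either strand and including those inside full elements, in 20.8%. Of the 8 genes, 6 had a window, and none held the full element. *Atf1* held 1 core, and *Creb1*, *Crtc1*, *Crtc3*, *Crebbp* and *Ep300* held none in this window. Of the 20 measured target genes with at least 1 window, 3 held the full element in a window (*Btg2*, *Dusp1* and *Areg*), beside 2.03% of the 27025 genes with a window, while *Rgs2* held cores only and *Dohh* neither. The *Atf1* site and those of the 2 target genes that rose in ASP shGRIN2D, with *Dusp1* as a further full element, are shown on the strand of the gene, with the matching letters in capitals.

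*Atf1* (chr15:100227757-100227786, + strand): gtgaccacgcggTGACGcagcacgccggcg
*Btg2* (chr1:134079303-134079332, − strand): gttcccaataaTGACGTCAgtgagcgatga
*Dusp1* (chr17:26508597-26508626, − strand): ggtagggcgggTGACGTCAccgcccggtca
*Rgs2*, upstream core (chr1:144004317-144004346, − strand): atgcggcgcctaCGTCAacagcgccctcgc
*Rgs2*, downstream core (chr1:144004199-144004228, − strand): ttggggcgtggcTGACGcctccaggtcccg

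The first letter of the match lay 90 bases before the start in *Atf1*, 166 in *Btg2*, 143 in *Dusp1*, and 185 and 67 in *Rgs2*. *Dusp1*, a phosphatase gene with the same 8 letters as *Btg2*, was at 10.8 to 12.5 CPM in ASP shGRIN2D and at 5.50 to 12.7 CPM in ASP shSCR, which overlapped (log2 fold change 0.24, SE 0.19, adjusted p = 0.685, edgeR). A match describes the letters and does not show that a factor was bound.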

How the data were processed

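The 14 libraries were made with a stranded mRNA kit. Per the labels and methods, the authors trimmed reads with Trim Galore 0.6.6, mapped them to GRCm39 with STAR 2.6.1, estimated abundance with Salmon 1.4.0 and rounded the estimates to the deposited whole counts, leaving out genes without expression in 2 replicates of any condition. Salmon divides ambiguous reads by estimation. The deposited tables of DESeq2 fold changes with p-values and of enrichment scores were not used.

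Counts were tested with edgeR 4.0.16 in R 4.3.3 (TMM, factors 0.984 to 1.02, quasi-likelihood F-test, 14 libraries, group as the only term, Benjamini-Hochberg over 19525 genes, threshold 0.05). CPM values carry the TMM factors. Per the methods, replicates were separate spheroid pellets, and p-values measure the spread between these libraries. The genes and lists were chosen with earlier results of these data known. All 8 genes were named, with *Dohh*, *Grin2d*, *Dhps*, up to 3 genes per list, direction and comparison with the smallest p past the threshold, and the 3 genes most similar to *Creb1* and to each called gene. *Cdh1*, *Cd68*, *Ptprc*, *Pecam1*, *Dcn*, *Thy1*, *Pdgfra*, *Kat2a*, *Kat6a*, *Kat6b*, *Fos*, *Nr4a1*, *Dusp1* and *Areg* fall outside this rule and were named after their values were seen. Transcript lengths and GC content came from the GENCODE model with the longest coding part per gene (GRCm38), matched for 18948 genes (97.0%). The script was tested on simulated data.

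For libraries with the same number, the deviations from the group mean correlated with r of 0.514, 0.287 and 0.203 for ASP shSCR and NoASP shSCR, so the numbers pair these libraries. In the other comparisons not every r was above 0.1. The alternatives were DESeq2 1.42.0, RLE factors, library size only, filterByExpr, a robust prior, only the compared groups, a replicate block and leaving out each library. Offsets for GC content and length and the removal of the libraries that stand apart were added after seeing the data.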

Additional observations from a re-analysis of the deposited data

How the results depend on the processing

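With aspartate and in ASP shGRIN2D, none of the 8 genes passed in any of 17 and 16 alternative settings. In ASP shDHPS against ASP shSCR, 1 of the 8 passed in the reported fit, and 0 with filterByExpr, GC and length offsets, library size only, only the 2 groups compared, RLE factors, without both shSCR replicate 2 libraries, and without these and ASP shDHPS replicate 1. Against ASP shGRIN2D, 1 passed in the reported fit and 0 with filterByExpr and with library size only. Leaving out single libraries gave 0 to 1 in both comparisons. The cause of these losses was not tested.

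With the replicate number as a block, *Ep300* (adjusted p = 0.00144) and *Crem* (adjusted p = 0.0373, edgeR), 2 of the 8, passed in ASP shDHPS against ASP shSCR. Outside the aspartate comparison the numbers were not taken to pair the libraries, since not every correlation of deviations passed 0.1. For ASP shDHPS with ASP shSCR the values were 0.258, 0.195, 0.201 and 0.040 in replicates 1 to 4. They were −0.117 to 0.042 for ASP shGRIN2D with ASP shSCR and 0.0053 to 0.231 for ASP shDHPS with ASP shGRIN2D. The block moved the counts over all genes to 2150, 1468, 611 and 2 for ASP shDHPS against ASP shSCR, ASP shDHPS against ASP shGRIN2D, ASP shGRIN2D against ASP shSCR and aspartate (64 for aspartate with the shSCR libraries alone). In the same order DESeq2 called 1379, 933, 442 and 0, the reported fit 824, 550, 226 and 0, and the fits without single libraries 412 to 894, 209 to 577, 86 to 208 and 0 to 1.

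Of the genes in the lists, 7 were called in ASP shDHPS against ASP shSCR, 13 with DESeq2, 24 with the block and 3 to 9 without single libraries. Against ASP shGRIN2D, 7 were called, 12 with DESeq2, 11 with only the 2 groups compared, 16 with the block, 12 without both shSCR replicate 2 libraries, 11 without these and ASP shDHPS replicate 1, and 2 to 9 without single libraries. In ASP shGRIN2D against ASP shSCR, 2 were called, 6 with DESeq2, 4 with GC and length offsets, 1 with library size only, 7 with the block and 1 to 2 without single libraries.

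Some log2 fold changes near 0 changed sign, none of them past the threshold. With GC and length offsets, ASP shDHPS against ASP shSCR gave 0.095 for *Crebbp*, 0.11 for *Crtc1*, 0.0099 for *Crtc3* and 0.15 for *Grin2d*, and against ASP shGRIN2D 0.045 for *Crebbp*. Without the 3 libraries that stood apart, *Crtc1* was at 0.10, *Crtc2* at 0.050, *Crtc3* at 0.056 and *Grin2d* at 0.044 in ASP shDHPS. Without both shSCR replicate 2 libraries, *Creb1* was at 0.012 with aspartate and *Dohh* at −0.042 in ASP shGRIN2D. *Creb1* in ASP shGRIN2D was at −0.013 with library size only and −0.031 with the block. With the block, *Crebbp* was at 0.037 with aspartate, and with the 7 shSCR libraries alone at 0.00013 and *Ep300* at 0.010. Without single libraries, the values in ASP shDHPS ran from −0.25 to 0.00035 (*Crebbp*), −0.13 to 0.10 (*Crtc1*), −0.11 to 0.034 (*Crtc2*), −0.21 to 0.062 (*Crtc3*) and −0.26 to 0.087 (*Grin2d*). In ASP shGRIN2D they ran from −0.022 to 0.039 (*Creb1*), −0.063 to 0.11 (*Crebbp*), −0.036 to 0.19 (*Crem*), −0.041 to 0.096 (*Dohh*) and −0.020 to 0.12 (*Ep300*), and with aspartate from −0.096 to 0.032 (*Creb1*), −0.12 to 0.065 (*Crebbp*), −0.099 to 0.16 (*Crem*), −0.20 to 0.013 (*Dhps*), −0.11 to 0.035 (*Dohh*) and −0.13 to 0.0057 (*Ep300*).

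The GC and length offsets and the removal of the libraries that stood apart were chosen after seeing the data. *Crem*, with 53 to 167 counts per library, is the member whose folds are least precise at this depth.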
